A study of Mus musculus with 4 samples.

Results

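The 9 genes described here store, carry, export and sense iron, or release it from heme. They are Fth1, Ftl1, Tfrc, Trf, Cp, Slc40a1, Ireb2, Aco1 and Hmox1, and they were followed in postnatal day 6 (P6) mouse lenses with a conditional knockout of Celf1, an RNA-binding protein that regulates the decay, splicing and translation of its target mRNAs. Every probe with 1 of these symbols was taken, which gave 17 of the 45263 probes used. Of these, 15 probes were detected above background in at least 2 lenses, and all 9 genes were among the 11516 genes tested. In the Celf1 cKO lenses the transferrin receptor transcript Tfrc was elevated 1.94-fold and the heme oxygenase transcript Hmox1 was reduced 1.86-fold. The Hmox1 difference depended on scaling, and its unnormalized intensities overlapped between the groups. Without normalization between arrays its log2 fold change was -0.11, where the median of all genes stood at 0.57. The ferritin light chain gene Ftl1 gave opposite signs at its 2 probes: a probe on the first bases of the transcript was 2.39-fold lower, and a probe near base 848 differed by 0.13 on the log2 scale, within the spread between lenses.

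Iron enters most cells as transferrin bound to the transferrin receptor, is held inside ferritin cages built of heavy and light chains, and leaves through ferroportin with the help of ferroxidases such as ceruloplasmin. The iron regulatory proteins, encoded by Aco1 and Ireb2, bind iron-responsive elements when iron is low. There they block translation of ferritin mRNA and protect the transferrin receptor mRNA from decay. The lens makes ferritin, transferrin and ceruloplasmin, and mutations in the iron-responsive element of the human ferritin light chain gene cause a hereditary cataract syndrome with high serum ferritin. None of these proteins, and no iron level, was measured here.

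Each array held RNA from 1 lens, with 2 Celf1 cKO and 2 Control lenses, and the replicates were labelled A and B in each group. Celf1 cKO mice carried a germline knockout allele (Celf1 lacZKI), an allele with a Celf1 exon flanked by loxP sites (Celf1 flox) and the Pax6GFPCre transgene, whose Cre is made mainly in the lens and in the pancreas and its precursors. Control mice were Celf1 lacZKI/+, so both groups carried a lacZKI allele, and neither a Cre transgene nor a floxed allele is stated for the Control mice. All were of mixed C57BL/6J and FVB background.

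Celf1 itself was at 7.45 and 6.95 on the normalized log2 scale in the Celf1 cKO lenses and at 8.71 and 8.55 in the Control lenses (log2 fold change -1.43 ± 0.19 SE, limma adjusted p = 0.00978). The lens labels were borne out by the fiber cell markers, of which all 8 were detected, with Bfsp2 and Dnase2b called reduced. Of 6 epithelial markers 5 were detected, with Foxe3 and Pdpn called reduced, and their summed normalized signal was 1521 and 1582 in the Celf1 cKO lenses against 2353 and 2136 in the Control lenses. In these whole lenses fewer cells of a type and less RNA per cell cannot be told apart. Xist was at least 6.09-fold higher in the Celf1 cKO lenses (7.42 and 7.27 against 4.26 and 4.39), and the Y-linked gene Ddx3y was lower in them (6.81 and 4.83 against 8.99 and 8.82). Uty, also Y-linked and named here after its values were seen, was near background and not lower in them (4.67 and 4.89 against 4.47 and 4.52). The labels give no sex, and a difference of sex and one of genotype cannot be told apart in these 4 lenses. The Celf1 cKO arrays were also brighter, with 16261 and 16925 probes detected against 14542 and 14180, and with a 99th percentile of unnormalized intensity of 3209 and 3444 against 2158 and 1699.

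A gene was called elevated or reduced at a Benjamini-Hochberg adjusted p under 0.05 in limma, an absolute log2 fold change over 0.58 (1.5-fold) and a mean log2 signal over 4.6. Of the 9 genes, 1 was called elevated and 1 reduced, against 6.01% and 5.64% of all genes tested. The groups did not overlap for 6 of the 9, against 62.3% of all genes. Of these, 3 were higher in both Celf1 cKO lenses (32.6% of all genes) and 3 were lower in both (29.7%). Their median log2 fold change was 0.17, beside 0.01 over all genes. An unadjusted p under 0.05 was found for 5 of the 9, against 31.9% of all genes. The results are therefore given gene by gene, and none is claimed for the set. The labels say nothing on litters or array slides, so the p-values measure the spread between these lenses. With 2 lenses a side, an exact permutation test of a single gene cannot go below p = 0.333.

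**Figure D1:**
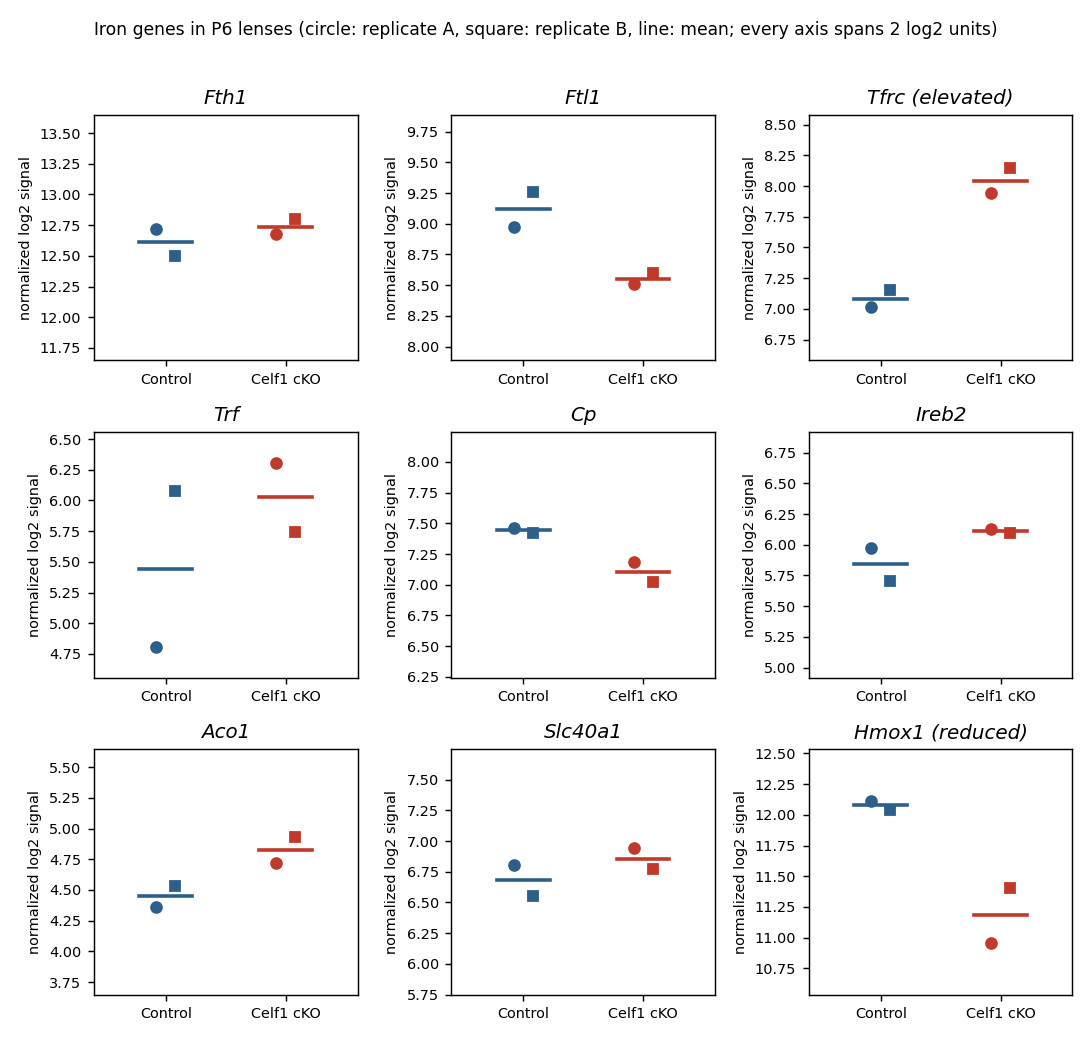
Normalized log2 signal (y axis, a span of 2 log2 units in every panel) of the 9 iron genes in the 2 Control and 2 Celf1 cKO lenses of P6 mice. A circle marks replicate A, a square replicate B and a line the group mean. Tfrc lay above 7.9 in both Celf1 cKO lenses and below 7.2 in both Control lenses, Hmox1 showed the opposite order, and the groups overlapped for Fth1, Trf and Slc40a1.

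The stretches that carry the Ftl1 result are those around its transcription start, because the probe that fell lies exactly on the first 50 bases after the start that RefSeq lists. The 80 bases from 50 before to 30 after that start (GRCm38.p6, chr7:45459857-45459936, minus strand) are printed with those of Cp (chr3:19957199-19957278, plus strand), the only other gene with a TATAAAA among the 6 of the 9 that had a RefSeq window. Capitals mark the TATAAAA.
Ftl1: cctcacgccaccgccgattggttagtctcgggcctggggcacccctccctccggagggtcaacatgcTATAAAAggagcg
Cp: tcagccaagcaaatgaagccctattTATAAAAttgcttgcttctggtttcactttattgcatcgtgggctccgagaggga
In Cp the TATAAAA began 25 bases before the listed start. In Ftl1 it lay after the listed start, at bases 18 to 24 of the probe itself. This heptamer, searched on both strands, was present in 5.48% of the 32851 RefSeq windows of 300 bases (250 before and 50 after a start). The match is a description of letters and not of a working promoter.

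The heavy chain gene Fth1 encodes the ferritin subunit with ferroxidase activity. Its normalized log2 signal was 12.68 and 12.80 in the Celf1 cKO lenses and 12.72 and 12.50 in the Control lenses. The groups overlapped, and the log2 fold change was 0.13 (95% interval -0.22 to 0.48, limma adjusted p = 0.589). Its 2 probes gave -0.05 and 0.30, neither of them called. The sign of this small difference turned with the deposited normalized table (-0.15) and with that table plus 16 (-0.14). It came to 0.75 without normalization between arrays and to 0.71 with the same median set for every array, and was called elevated in both (adjusted p = 0.00856 and 0.0144), where the median of all genes stood at 0.57 and 0.53.

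Ftl1, the light chain gene, averaged 8.51 and 8.60 in the Celf1 cKO lenses and 8.98 and 9.26 in the Control lenses. Both Celf1 cKO lenses were lower, and the log2 fold change of -0.56 ± 0.16 missed the call (limma adjusted p = 0.0581), although it passed without Control replicate A (-0.72, adjusted p = 0.0441). Without normalization between arrays it turned to 0.18. This average joins probes that moved apart. At the probe on base 1 the unnormalized intensity was 88.8 and 94.4 in the Celf1 cKO lenses and 120 and 119 in the Control lenses. That probe was therefore dimmer on both of the arrays that were otherwise the brighter ones. After normalization it was at 5.66 and 5.66 against 6.71 and 7.12, and the log2 fold change was -1.26 ± 0.18 (limma over probes, adjusted p = 0.00935). Without Control replicate B the value was -1.09 and the call was lost (adjusted p = 0.0692). It was kept without each of the other lenses. Without normalization between arrays the value was -0.56, under the fold threshold, and with the deposited normalized table the call was lost as well (-1.51, adjusted p = 0.079).

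At base 848 the unnormalized intensity of Ftl1 was 3390 and 4112 in the Celf1 cKO lenses and 2116 and 1848 in the Control lenses. After normalization these became 11.37 and 11.53 against 11.24 and 11.41, which overlapped (log2 fold change 0.13 ± 0.16, adjusted p = 0.635). The gap between the probes, base 1 minus base 848, was -5.71 and -5.87 log2 units in the Celf1 cKO lenses and -4.53 and -4.29 in the Control lenses. Both Celf1 cKO lenses had the wider gap, by 1.38 log2 units. The difference in this gap ran from -0.999 to -1.54 under the 8 other tables, background corrections and scalings. In the main setting limma's diffSplice, which tests whether the probes of a gene changed alike, gave Ftl1 an adjusted p of 0.0267. It called 1.49% of the 3417 genes with 2 or more retained probes. The test was chosen after the probe values were seen. The size ranged from -1.27 to -1.52 when each lens was left out, and the call held only without Control replicate A (adjusted p = 0.0341). The other probes on the array named for ferritin light chain copies (Ftl2-ps, Gm9230 and LOC670450) were each detected on 0 arrays. Whether RNA of such copies binds the Ftl1 probes was not tested.

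Tfrc encodes the receptor that takes up iron-loaded transferrin. Its 2 probes, at bases 4269 and 4355 of the transcript on chromosome 16, gave like changes. The unnormalized intensity at base 4269 was 352 and 423 in the Celf1 cKO lenses and 143 and 108 in the Control lenses. At base 4355 it was 346 and 424 against 137 and 136. Even the dimmer Celf1 cKO lens was 2.46 times as bright as the brighter Control lens at base 4269, and 2.52 times at base 4355, before any scaling. After normalization the gene stood at 7.94 and 8.14 in the Celf1 cKO lenses and at 7.02 and 7.15 in the Control lenses. The log2 fold change was 0.96 ± 0.15 (limma adjusted p = 0.0139), and the single probes gave 1.06 (adjusted p = 0.0107) and 0.86 (adjusted p = 0.031). The probes of Tfrc gave an adjusted p of 0.786 with diffSplice. Without Celf1 cKO replicate B the gene fell to 0.85 and lost the call (adjusted p = 0.106), as it did without Control replicate B (1.04, adjusted p = 0.057).

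The Tfrc promoter is shown because it is the promoter of the elevated gene. Its 250 bases before the first start listed by RefSeq and 5 bases after it (GRCm38.p6, chr16:32608646-32608900, plus strand) carry ACGTG, the core of the hypoxia response element, in capitals.
Tfrc: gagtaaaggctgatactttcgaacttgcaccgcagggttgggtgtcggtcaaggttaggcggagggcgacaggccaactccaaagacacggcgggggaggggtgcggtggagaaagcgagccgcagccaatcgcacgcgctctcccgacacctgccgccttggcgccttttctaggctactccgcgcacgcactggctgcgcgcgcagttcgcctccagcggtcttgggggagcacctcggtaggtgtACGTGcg
The core began 2 bases before this start. ACGTG, searched on both strands, was present in 19.6% of all windows. Among the 6 genes of the 9 with a RefSeq window it was found in Tfrc alone. A core this common does not set Tfrc apart, and the match describes letters and not a working element. The antioxidant response core TGACNNNGC, present in 12.4% of all windows, was found in none of those 6. Trf, Slc40a1 and Hmox1 had no window in the table used.

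Trf encodes transferrin, the carrier that the receptor binds. Its single probe read 127 and 98.3 before normalization in the Celf1 cKO lenses and 56.5 and 73.4 in the Control lenses. After normalization the values were 6.31 and 5.74 against 4.81 and 6.07, and the groups overlapped (log2 fold change 0.59, 95% interval -0.35 to 1.52, adjusted p = 0.352). The Control lenses lay 1.27 log2 units apart, the widest gap within a group among the 9 genes. Without Control replicate A the difference was -0.05, so its sign rested on that lens. Under the same pair of settings as for Fth1 it came to 1.20 and 1.16 and was called elevated (adjusted p = 0.000516 and 0.002).

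Among the export genes, Cp encodes ceruloplasmin, the copper ferroxidase that oxidizes iron as it leaves the cell. It averaged 7.19 and 7.02 in the Celf1 cKO lenses and 7.47 and 7.42 in the Control lenses. Both Celf1 cKO lenses were lower, but the log2 fold change of -0.34 ± 0.14 was not called (limma adjusted p = 0.151), and it turned to 0.40 without normalization between arrays. Of its 5 probes, 2 were above background on 0 arrays. The probe that spans an exon junction at base 3194 was at 8.32 and 8.21 against 8.95 and 9.06 and was called reduced (log2 fold change -0.74 ± 0.15, adjusted p = 0.0266). The probe at base 5 gave -0.47 (adjusted p = 0.111), and the probe at base 4353, annotated to another transcript variant, gave 0.20 (adjusted p = 0.424). A difference among these 3 probes was not called by diffSplice (adjusted p = 0.0809). The junction probe lost its call when any of the 4 lenses was left out, with adjusted p from 0.0527 to 0.177. Before normalization it was at 441 and 441 against 445 and 374, with the groups overlapping, and without normalization between arrays its log2 fold change was 0.11.

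Slc40a1 encodes ferroportin, the iron exporter. Its values of 6.94 and 6.77 in the Celf1 cKO lenses and 6.81 and 6.56 in the Control lenses overlapped. The log2 fold change was 0.17 (95% interval -0.20 to 0.54, adjusted p = 0.483). It came to 0.94 without normalization between arrays and to 0.91 with the same median set for every array, and was called elevated in both (adjusted p = 0.00134 and 0.00277).

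Of the genes of the iron sensors, neither was called in the main setting. Ireb2, which encodes iron regulatory protein IRP2, was at 6.13 and 6.10 against 5.97 and 5.71, a log2 fold change of 0.27 ± 0.15 (adjusted p = 0.262). It came to 0.91 without normalization between arrays and to 0.87 with the same median for every array, and was called elevated in both (adjusted p = 0.00169 and 0.00329). Its probes pointed opposite ways, with 0.70 at base 5185 (adjusted p = 0.07) and -0.16 at base 2659 (adjusted p = 0.511). That difference was not called by diffSplice (adjusted p = 0.152). Aco1 encodes cytosolic aconitase, which acts as the other regulatory protein, IRP1, when it has lost its iron-sulfur cluster. Its probe was above background in both Celf1 cKO lenses and in 0 of the 2 Control lenses. The normalized values were 4.72 and 4.93 against 4.36 and 4.53, which set the ratio at no more than a bound, at least 1.06-fold higher (adjusted p = 0.141). With a common median taken from the probes detected in all lenses its sign turned (-0.21).

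Hmox1 encodes the inducible heme oxygenase, which opens the heme ring and frees its iron. Its single probe on chromosome 8 was at 10.96 and 11.41 in the Celf1 cKO lenses and at 12.11 and 12.04 in the Control lenses. Both Celf1 cKO lenses were lower, and the log2 fold change of -0.89 ± 0.18 was called reduced (limma adjusted p = 0.027). The size of this difference depended on how the arrays were scaled. The unnormalized intensities were 2588 and 3765 in the Celf1 cKO lenses and 3840 and 2929 in the Control lenses, and they overlapped. Without normalization between arrays the log2 fold change was -0.11, and with the same median set for every array -0.14, where the median of all genes stood at 0.57 and 0.53. Relative to that median Hmox1 was still lower, by -0.68 under both. The call was lost when any of the 4 lenses was left out, with log2 fold changes from -1.12 to -0.68 and adjusted p from 0.052 to 0.108.

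**Figure D2:**
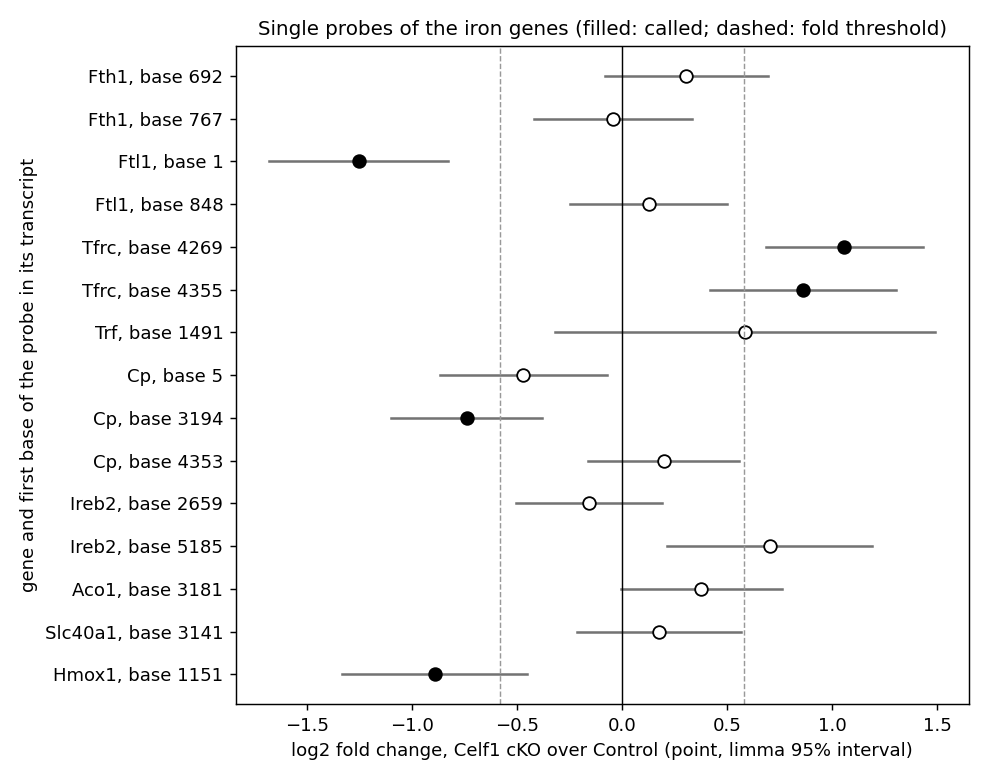
Log2 fold change of Celf1 cKO over Control lenses (x axis) for the 15 retained probes of the 9 genes, each named by its first base in the transcript. Points are limma estimates, bars their 95% intervals, filled points the 5 called probes and dashed lines the fold threshold. The Tfrc probes lay together at 1.06 and 0.86, whereas those of Ftl1 lay at -1.26 and 0.13.

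Of the 15 retained probes, 5 were called, beside 11.5% of all 16262 retained probes. They were both Tfrc probes, the Hmox1 probe, the Ftl1 probe at base 1 and the Cp junction probe. Probes of a gene share its transcripts and are not replicates.

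**Figure D3:**
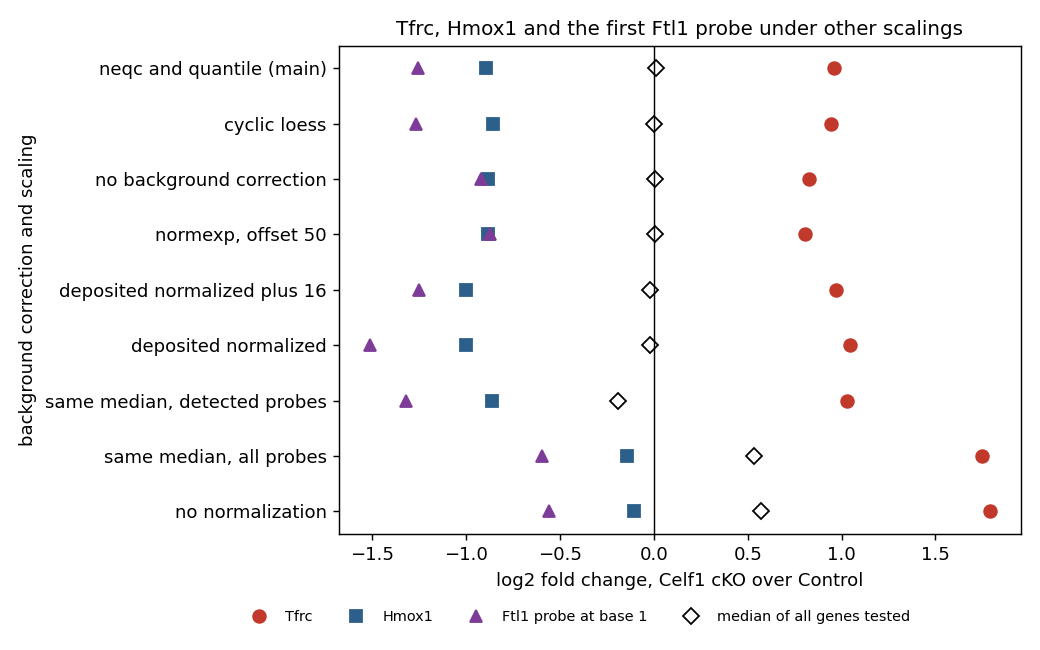
Log2 fold change of Celf1 cKO over Control lenses (x axis) for Tfrc, Hmox1 and the Ftl1 probe at base 1 under 9 choices of background correction and scaling (y axis), with the median of all genes tested as open diamonds. Tfrc stayed between 0.81 and 1.79 and the Ftl1 probe below -0.55 in all 9, whereas Hmox1 came to -0.11 where the median of all genes rose to 0.57.

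Signs of other cell types were checked beside these results, because macrophages and red blood cells are rich in iron genes. Of 10 macrophage markers 5 were tested, and Cd68 and C1qb were called elevated. Both were detected in the Celf1 cKO lenses alone and stood at least 1.26-fold and 1.22-fold higher. They passed the detection filter only through the group in which they were high, so these calls are no independent sign of macrophages. C1qc, also detected in the Celf1 cKO lenses alone, stood at least 1.14-fold higher, Aif1 gave -0.06 and Csf1r -0.11, none of them called. Cd163, a macrophage receptor listed with the uptake genes, was detected in the Control lenses alone and stood at least 1.42-fold lower in the Celf1 cKO lenses, not called. The summed macrophage signal was 151 and 159 in the Celf1 cKO lenses and 123 and 126 in the Control lenses. Cd68, C1qb and C1qc are part of this sum, so it is no independent sign of macrophages either. Adgre1, Lyz2, C1qa, Mrc1 and Fcgr3 did not pass the detection filter. Of 8 blood markers 4 were tested, with summed signals of 787 and 375 against 662 and 560, which overlapped. Slc4a1 was called reduced (log2 fold change -1.03, adjusted p = 0.0114), and the globins Hba-a1 and Hbb-b1 gave -0.08 and 0.05. Of the 7 vessel markers 6 were tested, and Emcn and Flt1 were called elevated. The other vessel markers gave 0.58 for Cdh5, -0.06 for Pecam1, -0.26 for Tek and -0.59 for Kdr, none of them called, with summed signals over the list of 338 and 334 against 291 and 283. The part of these cells in the Tfrc and Hmox1 differences was not tested. For the pigment epithelium and the retina 1 of 8 markers each was tested, and for muscle 2 of 6, none of them called.

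Of 79 further genes listed from the wider iron and heme pathways, 55 were tested. Among those 55, 3 were called elevated and 1 reduced, or 7.27%, beside 11.6% of all genes. Their median log2 fold change was -0.04. The 24 others did not pass the detection filter. No result is claimed for these lists as a set.

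Mitochondrial iron-sulfur genes held the largest difference of these lists. Glrx5, a mitochondrial glutaredoxin that passes on newly made iron-sulfur clusters, was at 9.80 and 10.00 in the Celf1 cKO lenses and at 9.13 and 8.58 in the Control lenses. Both Celf1 cKO lenses were higher (log2 fold change 1.05 ± 0.21, adjusted p = 0.025). It was the only gene called of 13 tested in its list. The scaffold gene Iscu gave -0.03 and the chaperone gene Hspa9 -0.08. The Glrx5 call was kept without Control replicate A (1.32, adjusted p = 0.0215) and lost without each of the other lenses (adjusted p from 0.055 to 0.145). None of the 5 cytosolic assembly genes tested was called by limma, 1 of which had an unadjusted p under 0.05, beside 31.9% of all genes tested. Ciao2b gave 0.42, Nubp2 0.21 and Nubp1 -0.14.

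Among 5 tested genes of export and its control, Flvcr1 and Hfe were called in opposite directions. Flvcr1, a transporter first described as a heme exporter, was at 7.34 and 7.33 against 6.44 and 6.75 (log2 fold change 0.74 ± 0.16, adjusted p = 0.0298). Hfe, a partner of the transferrin receptor that is mutated in hereditary hemochromatosis, was at 6.40 and 6.06 against 7.001 and 6.96 (log2 fold change -0.75 ± 0.16, adjusted p = 0.0313). Both calls were lost when any of the 4 lenses was left out, with adjusted p from 0.0579 to 0.171 for Flvcr1 and from 0.0508 to 0.221 for Hfe. Hfe came to -0.06 without normalization between arrays and to -0.10 with the same median for every array (adjusted p = 0.837 and 0.723). The ferroxidase gene Heph gave -0.46, Fbxl5, whose product targets iron regulatory proteins for degradation, gave -0.17, and Flvcr2 gave -0.24.

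No other uptake gene was called by limma among 8 tested, 1 of which had an unadjusted p under 0.05 (31.9% of all genes). The iron transporter gene Slc11a2 gave -0.08, the ferrireductase gene Steap3 -0.26 and its family member Steap1 -0.04. Among 4 tested genes of storage and handling, also with 0 called by limma and 2 at an unadjusted p under 0.05 (31.9% of all genes), the iron chaperone genes Pcbp1 and Pcbp2 gave 0.45 and 0.52, and Ncoa4, the receptor that delivers ferritin to autophagy, gave -0.32.

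In heme synthesis 1 of 6 tested genes was called. Uros, the uroporphyrinogen synthase gene, was at 6.94 and 7.08 against 6.38 and 6.46 (log2 fold change 0.59 ± 0.14, adjusted p = 0.0406), just past the fold threshold. It lost its call when any of the 4 lenses was left out, with adjusted p from 0.0751 to 0.271. Urod gave 0.41, Alad -0.37 and Alas1, which encodes the rate-limiting enzyme outside red cells, -0.26. In heme breakdown, Hmox2, the constitutive heme oxygenase, was at 7.88 and 8.12 against 8.22 and 7.70 and overlapped (0.04, adjusted p = 0.912). The biliverdin reductase genes Blvra and Blvrb gave -0.35 and 0.38.

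Hmox1 is a known target of the transcription factor NRF2 and of its competitor BACH1. None of 11 tested genes of that list was called by limma, 2 of which had an unadjusted p under 0.05 (31.9% of all genes). The peroxiredoxin gene Prdx1 gave -0.22, Mafg, which encodes a small partner of both factors, 0.41 and Gclm, a glutathione synthesis gene, 0.16. The list spanned -0.22 to 0.67, and some of its members lay near background. Any part of NRF2 or BACH1 in the Hmox1 difference was not tested.

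**Figure D4:**
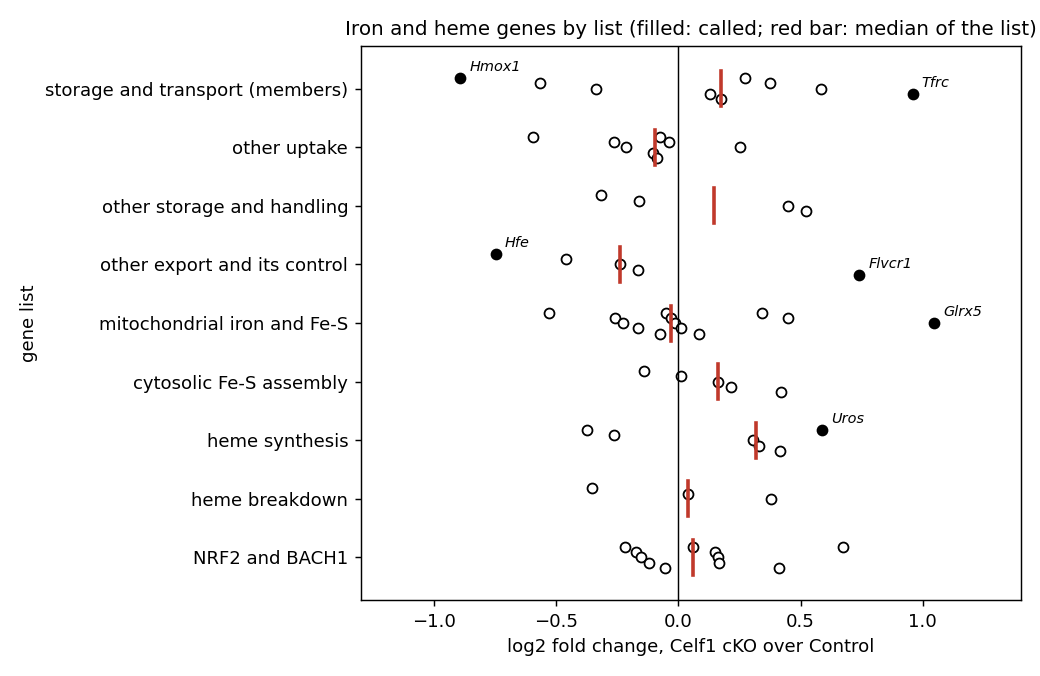
Log2 fold change of Celf1 cKO over Control lenses (x axis) for the tested genes of each iron and heme list (y axis). Each point is 1 gene, filled points were called and named, and a red bar is the median of the list. Of the 55 genes outside the first line 4 were called, namely Glrx5, Flvcr1, Uros and Hfe.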

How the data were processed

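RNA of single P6 lenses was hybridized to Illumina MouseWG-6 v2.0 BeadChips. The authors deposited an unnormalized and a normalized table of probe intensity, with a detection p-value, bead number and bead standard error per probe. How the normalized table was scaled is not given in the sources used here. The authors tested for differences with edgeR on array signal. Intensities are not counts, so limma was used here.

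From the deposited unnormalized intensity, background was corrected by neqc (negative controls inferred from the detection p-value, offset 16), followed by quantile normalization and log2 transformation. Only probes that 2 or more lenses detected (deposited p-value under 0.05) were retained, 16262 of 45263, and the log2 values of the probes of a gene were averaged over 11516 genes. Lines with shifted columns (18 of 45281) were left out. Celf1 cKO and Control lenses were compared by lmFit and eBayes in limma 3.58.1 (R 4.3.3). Tests were two-sided, and p-values were adjusted by Benjamini-Hochberg across every gene in the fit, or across every probe for single probes. The fit was tested on simulated data. A ± is a standard error, with n = 2 lenses a group. Adjusted p-values from limma are given throughout, and summed marker signals are sums of normalized linear values. Where a gene was detected in 1 group alone, its fold is a bound, set against the lowest signal among detected probes on each array of the other group.

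Medians of 38 to 40 beads per probe gave bead standard errors of 4.36% to 7.26% (highest on Control replicate B). The number of lenses, 2 a group, limits the precision. Probes were named by Entrez gene, accession or symbol against the RefSeq gene table of GRCm38.p6, and promoter windows came from the same build. The probe table gives coordinates with no build, so those coordinates are not printed, and probes are placed by their base in the transcript. The Ftl1 probe at base 1 was matched by its sequence to the GRCm38.p6 window, and the Cp junction probe is called so because the table gives it 2 separate stretches.

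The 9 genes, the lists and the tests were chosen with earlier results of these data known. Genes named are the 9, every called gene of the wider lists and up to 3 others per list of largest mean signal, Celf1, Xist, Ddx3y and markers that moved with a result. The value of 1 gene that the rule names is not reported here. Alternatives varied the table, background correction, normalization, detection filter, probe choice, test and lenses. A slide block was not run, since the files give no slide.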

Additional observations from a re-analysis of the deposited data

How the results depend on the processing

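Tfrc was higher in all 19 alternatives, and it kept its call in 14 of them. Hmox1 was lower in all 19 and kept its call in 10. The main counts were 1 member elevated, 1 reduced, 5 member probes, 4 other iron genes and 1341 genes in all. With the deposited normalized table and values under 1 set to 1 they were 0, 0, 0, 0 and 7, and with that table plus 16 they were 1, 1, 5, 4 and 1190. With no detection filter they were 0, 0, 0, 0 and 207, and with a test against the fold threshold itself (treat) 0, 0, 0, 0 and 86. Setting the same median for each array gave 5, 0, 10, 22 and 5417, and no normalization gave 5, 0, 9, 25 and 5788. The members elevated there were Tfrc, Fth1, Trf, Ireb2 and Slc40a1. Those 2 settings moved the median of all genes to 0.53 and 0.57, so that elevated genes made up 97.3% and 97.7% of calls (51.6% in the main setting). A common median taken from the probes that every lens detected called 9 other iron genes and 2690 in all (24.8% elevated, median -0.19). An offset of 50 called 1 and 789, and no background correction called 2 other iron genes. Taking the brightest probe called 2 members reduced, with Cp beside Hmox1. Leaving out a lens gave 0 to 1 members elevated, 0 to 1 reduced, 0 to 3 member probes, 0 to 3 other iron genes and 163 to 1364 genes. Without Control replicate A the reduced member was Ftl1. There the lone lens of a group is assumed to vary like the others.

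Signs turned as follows. Ftl1 came to 0.13 with the brightest probe, 0.15 with the same median and 0.18 without normalization. Cp came to 0.36 and 0.40 under the last 2 settings, and its junction probe to 0.076 and 0.11. Fth1 came to -0.15 with the deposited table, to -0.14 with that table plus 16 and to -0.009 with the common median of detected probes, where Aco1 came to -0.21. With a lens left out, Trf ran from -0.049 (without Control replicate A) to 1.32 and the difference between the Tfrc probes from -0.47 to 0.069 (without Control replicate B). The difference between the Ftl1 probes lost its call with the deposited table (-1.54, adjusted p = 0.116) and with that table plus 16 (-1.28, adjusted p = 0.0577), and that between the Cp probes gained one with no background correction (-0.81, adjusted p = 0.0416) and an offset of 50 (-0.79, adjusted p = 0.0327). The cause of these shifts was not tested.

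The A minus B differences of the groups correlated at -0.01 over genes, which gave no sign that the replicate letters pair the lenses. This correlation cannot exclude a shared litter or slide, which the labels do not give. With the letters as a replicate block 1 member was elevated, 1 reduced, 6 member probes and 6 other iron genes were called, and 1685 genes in all. Aco1 and Cd68 lie near background, where signal limits the size of a fold.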
